A study of Drosophila melanogaster with 6 samples.

Results

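Genes of muscle calcium handling were followed in larvae in which the cofilin gene tsr was knocked down in muscle. They encode the calcium channels, pumps, exchangers and sensors of excitation-contraction coupling. The genes were chosen by name from a list of 10 symbols, of which 9 had a row among the 13517 genes of the table; SclA was not analysed here. The 9 were RyR, Ca-alpha1D, Ca-beta, SERCA, Stim, Calx, Cam, CaMKII and SclB, and each passed the filter on low values.

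RNA from lysates enriched for muscle, taken from Drosophila melanogaster larvae late in the third instar, was sequenced, in 3 samples per group. Both groups carried Mhc-Gal4, a driver that switches on UAS transgenes in muscle from the myosin heavy chain promoter. The control group expressed UAS-mCherryRNAi, directed at a red fluorescent protein that flies do not have, and the knockdown group expressed UAS-twinstarRNAi, directed at tsr, the cofilin gene. Per the labels, the 3 samples of a group were biological replicates, and each pooled 7 to 10 larvae. The labels' tissue field says adult; the growth protocol and series design say larvae, which is followed here. The driver acts in muscle, and a lysate enriched for muscle can also hold other tissues.

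In muscle, a voltage-gated calcium channel in the surface membrane senses depolarisation, and the ryanodine receptor in the sarcoplasmic reticulum releases stored calcium. Calcium then binds troponin on the thin filament and the sarcomere contracts. A calcium ATPase pumps the ion back into the store, a sodium-calcium exchanger expels it across the surface membrane, and STIM proteins sense an empty store and open Orai channels. Calmodulin and its kinase read the calcium signal. The same proteins also serve neurons and other cells.

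The level of tsr itself was 39133, 29266 and 25816 scaled counts in the 3 controls, against 6966, 7070 and 5035 in the 3 knockdown samples; here and below, values are given in the order of replicates 1 to 3. A scaled count is a read count divided by 1 factor per library. The knockdown samples all lay below the controls (log2 fold change -2.30, SE 0.21, limma adjusted p = 0.00525). Each sample had between 37138289 and 41900871 reads in genes. Control replicate 2 stood apart: over 11720 tested genes its log2 values correlated at 0.759 and 0.813 with the other controls, while those correlated with each other at 0.951 and the knockdown samples with each other at 0.959 to 0.963. The first principal component (58.7% of the variance) separated control replicates 1 and 3 from the remaining 4 samples.

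None of the 9 calcium handling genes passed an adjusted p of 0.05 by limma, which called 1360 of the 11720 genes tested (11.6%). At an unadjusted p under 0.05 there were 5 of the 9 (RyR, Ca-beta, Stim, Cam and Calx), against 29.1% of all tested genes. edgeR on the recovered reads called 0 of the 9 (4 at an unadjusted p under 0.05, against 28.6% of all genes), with 9.92% of all genes called. DESeq2 called 4 of the 9, with RyR and Ca-beta higher and Stim and Cam lower in the knockdown, and it called 24.1% of all genes. In 6 of the 9 the groups did not overlap: RyR, Ca-beta and Calx were higher in each knockdown sample, and Stim, Cam and CaMKII were lower in each. Such separation occurred in 36.4% of all tested genes. The 9 had a median log2 fold change of 0.35, beside 0.06 over all genes tested.

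**Figure D1:**
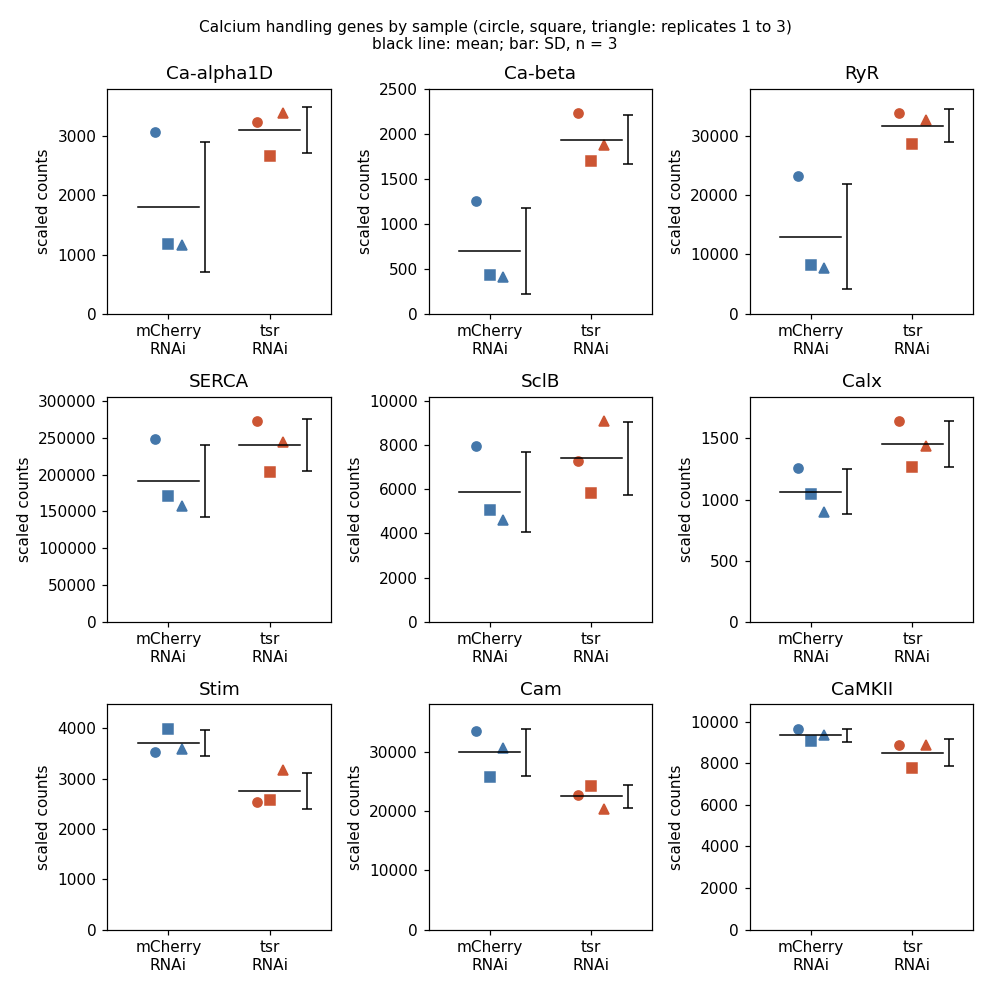
Scaled counts (vertical axes, from 0) of the 9 calcium handling genes in the control (mCherry RNAi) and knockdown (tsr RNAi) samples, with 1 symbol per replicate, the mean as a line and the SD as a bar (n = 3). Control replicate 1 (circle) stood well above the other controls for Ca-alpha1D, Ca-beta and RyR, while the groups of Stim, Cam and CaMKII separated with the knockdown lower.

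RyR and 2 channel subunit genes had the largest fold changes of the 9. RyR (FBgn0011286), on chromosome arm 2R, encodes the ryanodine receptor, the release channel of the sarcoplasmic reticulum. It was at 23198, 8207 and 7696 scaled counts in the controls, against 33929, 28616 and 32648 in the knockdown samples. Each knockdown sample lay above each control, and control replicate 1 lay nearer to the knockdown samples than to the other controls. The means were 13034 ± 8806 and 31731 ± 2773 (SD, n = 3 per group), and the log2 fold change was 1.48, with a 95% interval from 0.42 to 2.53 (limma adjusted p = 0.0797). DESeq2 gave 1.27 (adjusted p = 0.0276).

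The voltage sensor upstream of it also had its highest control value in replicate 1. Ca-alpha1D (FBgn0001991; chromosome arm 2L, 16165831 to 16190540, plus strand of dm6) encodes the pore-forming subunit of the L-type channel of larval muscle. The controls had 3063, 1178 and 1160 scaled counts of Ca-alpha1D, and the knockdown samples had 3236, 2663 and 3394. Control replicate 1 lay above knockdown replicate 2, so the groups overlapped, while the other 2 controls lay below the knockdown samples. The log2 fold change was 0.93, with an interval from -0.03 to 1.90 (limma adjusted p = 0.184), and DESeq2 gave 0.77 (adjusted p = 0.223).

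Ca-beta (FBgn0259822 in the table; 2L, 11156118 to 11203544, minus strand) encodes the cytoplasmic beta subunit that traffics and tunes voltage-gated calcium channels. In the controls Ca-beta was at 1255, 434 and 406 scaled counts, compared with 2240, 1702 and 1882 after tsr knockdown. The groups did not overlap, and control replicate 1 was again the highest control. The means were 698 ± 482 and 1941 ± 274 (SD, n = 3 per group). The log2 fold change of 1.67 was the largest among the 9 genes, with an interval from 0.58 to 2.76 (limma adjusted p = 0.0653; DESeq2 1.46, adjusted p = 0.0198).

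For these 3 genes the size of the difference and its call depended on control replicate 1. Its value was 2.92 times the mean of the other 2 controls for RyR, 2.62 times for Ca-alpha1D and 2.99 times for Ca-beta. Against control replicates 2 and 3 alone, the knockdown mean was 3.99 times as high for RyR, 2.65 times for Ca-alpha1D and 4.62 times for Ca-beta. Against control replicate 1 alone it was 1.37, 1.01 and 1.55 times as high, in the same order. Without control replicate 1, limma called these 3 of the 9 genes higher, with log2 fold changes of 1.99 (adjusted p = 0.00713), 1.40 (adjusted p = 0.0136) and 2.20 (adjusted p = 0.00814), and 5.37% of all genes were called higher in that fit. Without control replicate 2, the sample that stood apart, 0 of the 9 were called although 27.3% of all genes were, with RyR at 1.24 (adjusted p = 0.101) and Ca-beta at 1.43 (adjusted p = 0.0752).

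The summed scaled count of 25 sarcomere genes in control replicate 1 was 1.40 times the mean of the other controls. That was less than for RyR, Ca-alpha1D and Ca-beta (2.62 to 2.99 times), but single sarcomere genes varied. TpnC47D was at 41190 there, against 20019 and 16492 in the other controls. TpnC41C, with few counts, was at 44.5 against 14.6 and 17.2, while tmod was at 27232 against 33903 and 27671. The sarcomere sum was 4184255 to 6054650 in the controls and 7027871 to 9982445 in the knockdown samples, without overlap. Act57B (mean 1233631 in the controls and 2806203 in the knockdown samples) and Mhc (693462 and 1362709) weighed most in that sum. Of the 24 sarcomere genes tested, limma called 2 higher and 1 lower, against 4.58% and 7.02% of all tested genes. Act87E (2.67) and TpnC25D (0.86) were the higher ones and Zasp66 (-0.81) the lower one. In 23 of 24 the log2 fold change was above 0, with a median of 0.66, but some hardly differed (tmod at 0.05). The groups did not overlap in 14 of 24, against 36.4% of all tested genes. Zasp67, the sarcomere gene left untested, was listed at 0 in 1 sample. Mhc, the muscle myosin heavy chain gene, was at 557851 to 1557535 scaled counts across the 6 samples. The larval cuticle genes Lcp3 (1169924 to 1296627) and Lcp4 (1473886 to 1740994), markers of the epidermis, exceeded Mhc in each control, where Mhc was at 557851 to 923059. In bulk lysates a larger share of muscle cells and more RNA per muscle cell cannot be told apart.

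Markers of neurons differed between the groups as well. The summed scaled count of 8 neuronal markers was 3548 to 6213 in the controls, with control replicate 2 lowest, and 14096 to 16265 in the knockdown samples. All 8 were above 0 in log2 fold change with groups that did not overlap. Separation with the knockdown higher occurred in 16.8% of all tested genes. Limma called 2 of the 8 (Syt1 and para) higher, against 4.58% of all tested genes, and none was at 0 in any sample. The 4 glial markers summed to 3697 to 4288 and 6205 to 7109, and 1 of the 4 (nrv2) was called higher, against the same 4.58%. The part of nervous tissue in the values of RyR, Ca-alpha1D and Ca-beta was not tested. The markers of the epidermis differed too: 7 summed to 4075512 to 4948018 in the controls and 1287522 to 2123430 in the knockdown samples. Of the 7, limma called 2 lower, the larval cuticle genes Lcp1 and Lcp2, against 7.02% of all tested genes. The 4 Lcp genes made up most of the epidermal sum. Of the other 3, vvl was higher in each knockdown sample (0.55, limma adjusted p = 0.127), while Cpr47Ef (1.09) and grh (-0.29) overlapped between groups. The sums of 6 fat body, 5 hemocyte and 4 tracheal markers overlapped between groups. Among the fat body markers Lsp1gamma was called higher (1.22, adjusted p = 0.0452) and Fbp1 lower, from 97304 to 405977 scaled counts in the controls against 2198 to 8129 (-5.55, adjusted p = 0.0122). The hemocyte gene eater (-0.92) and the tracheal gene serp (-0.77) were called lower too.

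On the uptake side the groups overlapped for both the pump and its peptide regulator. SERCA (FBgn0263006, on 2R) encodes the calcium ATPase that refills the store. SERCA reached 247926, 170493 and 157141 scaled counts in the controls and 273336, 203887 and 243637 in the knockdown samples. The groups overlapped through control replicate 1, which exceeded knockdown replicates 2 and 3. The means were 191853 ± 49017 and 240287 ± 34846 (SD, n = 3 per group), so that the log2 fold change was 0.34 with an interval from -0.29 to 0.98 (limma adjusted p = 0.434). SERCA supplied 72.9% to 76.8% of the scaled counts of the 9 genes in each sample.

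SclB (FBgn0266492) encodes one of the sarcolambans, tiny transmembrane peptides that bind SERCA and restrain it, as phospholamban and sarcolipin do in vertebrates. The annotation of dm6 gives SclA and SclB the same interval, 16837972 to 16841884 on 2L, plus strand, with separate transcript identifiers. The open reading frame of SclA spans 16839227 to 16839310 (28 codons) and that of SclB 16840296 to 16840382 (29 codons). The annotation assigns SclB 1160 exonic bases, of which 1027 are also assigned to SclA, so the SclB value cannot be taken as specific to that reading frame. The SclB row held 7975, 5055 and 4633 scaled counts in the controls, against 7277, 5828 and 9119 after knockdown. The groups overlapped, again through control replicate 1 (log2 fold change 0.35, interval -0.29 to 0.99, limma adjusted p = 0.427).

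Calx (FBgn0013995; chromosome arm 3R, 20978183 to 21015613, plus strand) encodes the sodium-calcium exchanger of the surface membrane. The controls had 1255, 1048 and 894 scaled counts of Calx, compared with 1646, 1269 and 1440 in the knockdown samples. The groups did not overlap, but only narrowly, with the lowest knockdown sample at 1269 and the highest control at 1255. The log2 fold change was 0.45, with an interval from 0.04 to 0.87 (limma adjusted p = 0.145; DESeq2 adjusted p = 0.114).

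The store sensor, calmodulin and its kinase were each lower in the 3 knockdown samples than in the 3 controls. Stim (FBgn0045073; X, 15934495 to 15940451, minus strand) encodes the store sensor that activates Orai channels. Stim was at 3540, 3998 and 3594 scaled counts in the controls, against 2528, 2572 and 3166 in the knockdown samples. Each knockdown sample lay below each control, and both groups were tight. The means were 3711 ± 250 and 2755 ± 357 (SD, n = 3 per group), so that the log2 fold change was -0.44 with an interval from -0.74 to -0.13 (limma adjusted p = 0.0758). It was under the threshold by DESeq2 (adjusted p = 0.00668) and with TMM scaling in limma (adjusted p = 0.0429), where 7.82% of all genes were called lower, and just above it by edgeR (adjusted p = 0.0541).

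Cam (FBgn0000253, on 2R) encodes calmodulin. Scaled counts of Cam were 33497, 25666 and 30607 in the controls and 22736, 24260 and 20387 after knockdown. The knockdown samples all lay below the controls, with control replicate 2 closest to them. On average the knockdown samples had 75.1% of the control level (log2 fold change -0.41, interval -0.76 to -0.06, limma adjusted p = 0.126; DESeq2 -0.42, adjusted p = 0.0346).

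CaMKII (FBgn0264607; chromosome 4, 1035288 to 1053703, minus strand) encodes the calmodulin-dependent kinase. CaMKII was at 9675, 9055 and 9354 scaled counts in the controls, compared with 8888, 7773 and 8882 in the knockdown samples. The groups separated by a small margin, and the controls varied least of the 9 genes, with a coefficient of variation of 3.31%. The log2 fold change was -0.14, with an interval from -0.38 to 0.10 (limma adjusted p = 0.412), so a fall beyond 0.38 or a rise beyond 0.10 lay outside the interval.

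The genes differed in how even the controls were. The control coefficient of variation was 67.6% for RyR, 69% for Ca-beta and 60.7% for Ca-alpha1D. It was 30.9% for SclB, 25.5% for SERCA, 17% for Calx, 13.2% for Cam and 6.74% for Stim. In the knockdown samples the 9 genes ranged from 7.54% (CaMKII) to 22.3% (SclB), and RyR was at 8.74%.

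Levels were compared between genes per kilobase of annotated exon, taking the union of all isoforms in the annotation of dm6. In the controls SERCA stood highest at 23216 ± 5931 scaled counts per kb (SD, n = 3). Cam followed at 5149 ± 681 and SclB at 5075 ± 1569, and these neighbours did not differ beyond their spread. CaMKII stood at 2040 ± 67.6, Stim at 1248 ± 84.1 and RyR at 795 ± 537 scaled counts per kb.

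The range of RyR, from 469 to 1414 per kb, included the values of Stim. The lowest were Ca-alpha1D at 172 ± 104, Calx at 119 ± 20.2 and Ca-beta at 83.6 ± 57.7 scaled counts per kb, whose ranges overlapped. In the knockdown samples RyR stood above Stim and CaMKII, at 1934 ± 169 per kb, with CaMKII at 1856 ± 140 within its spread, while SERCA remained first at 29076 ± 4217. Ca-beta at 232 ± 32.8 then stood above Calx at 162 ± 21.0. The exon length of SclB includes bases shared with SclA, which makes its place uncertain.

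**Figure D2:**
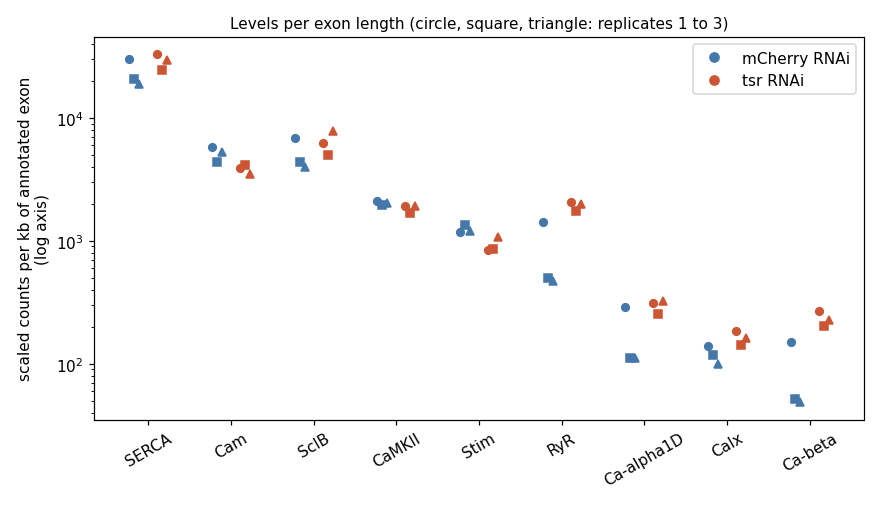
Scaled counts per kb of annotated exon (log axis) for the 9 genes, ordered by control mean, with blue for mCherry RNAi, orange for tsr RNAi and 1 symbol per replicate. SERCA was highest in each sample, and the knockdown values of RyR (1744 to 2068) reached those of CaMKII (1694 to 1937).

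Because 23 of the 24 sarcomere genes tested had a log2 fold change above 0 (2 called higher, 1 lower), the values were rescaled to that list. The rescaling removed each sample's median log2 deviation over the 24 genes. That deviation was -0.04, -0.45 and -0.52 in the controls, against 0.48, 0.04 and 0.51 in the knockdown samples. The rescaling moved the median log2 fold change over all genes tested from 0.06 to -0.61, and 21.6% of genes were then called lower and 1.57% higher. Relative to the sarcomere genes, Stim (-1.11, adjusted p = 0.0194), Cam (-1.08, adjusted p = 0.0193) and CaMKII (-0.81, adjusted p = 0.0233) were called lower by limma, 3 of the 9, and 0 of the 9 were called higher. The rescaling shifts all genes of a sample alike. With the authors' scaling, Stim, Cam and CaMKII were at -0.44, -0.41 and -0.14, beside the all-gene median of 0.06.

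Under the same rescaling SERCA (-0.33), SclB (-0.32) and Calx (-0.22) changed sign and did not pass the threshold (adjusted p = 0.118 to 0.404). RyR (0.80, adjusted p = 0.0921), Ca-beta (0.998, adjusted p = 0.0704) and Ca-alpha1D (0.26, adjusted p = 0.5) kept theirs. The rescaled groups of Ca-beta did not overlap, at 581 to 1286 in the controls and 1322 to 1659 in the knockdown samples. The rescaled RyR values did overlap, since control replicate 1 was at 23775 and knockdown replicate 3 at 22931.

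**Figure D3:**
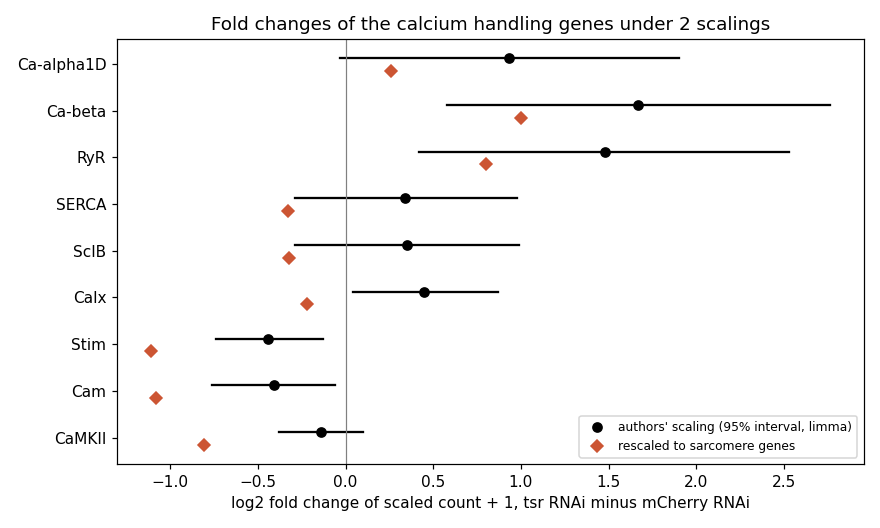
Log2 fold changes (horizontal axis, tsr RNAi minus mCherry RNAi) of the 9 genes with the authors' scaling (black, 95% interval) and after rescaling to the sarcomere genes (orange). SERCA, SclB and Calx lay above 0 with the first scaling and below 0 with the second, whereas Ca-alpha1D, Ca-beta and RyR lay above 0 and Stim, Cam and CaMKII below 0 with both.

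Ratios of 2 genes within a library do not depend on the scaling. The ratio of RyR to Ca-alpha1D, release channel to voltage sensor, was 7.57, 6.97 and 6.64 in the controls, against 10.5, 10.7 and 9.62 in the knockdown samples. The groups did not overlap, and control replicate 1 was close to the other controls although each of the 2 genes was high there. The mean ratio was 7.06 ± 0.476 and 10.3 ± 0.59 (SD, n = 3 per group), a log2 difference of 0.54.

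The ratio of Ca-beta to Ca-alpha1D, 2 subunits of one channel type, was 0.41, 0.368 and 0.35 in the controls, against 0.692, 0.639 and 0.554 in the knockdown samples. Here too the groups did not overlap (log2 difference 0.74), and the controls were even. The ratio of SERCA to RyR, uptake to release, was 10.7, 20.8 and 20.4 in the controls and 8.06, 7.12 and 7.46 in the knockdown samples. Control replicate 1 lay between its group and the knockdown, without overlap (log2 difference -1.13).

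The ratio of SclB to SERCA overlapped between groups, at 0.0295 to 0.0322 in the controls and 0.0266 to 0.0374 in the knockdown samples (log2 difference 0.01). For the first 3 of these ratios p was 0.1 by a two-sided exact permutation test (adjusted over 4 ratios, 0.133), the smallest value that 3 samples against 3 allow. For SclB to SERCA the exact test gave p = 1. The ratios of scaled counts are not corrected for gene length, which cancels in the comparison of groups.

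**Figure D4:**
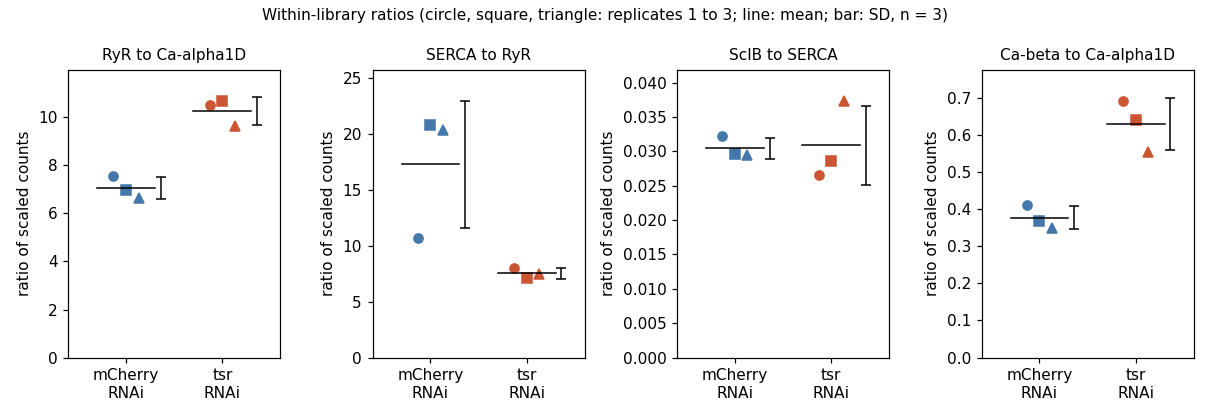
Ratios of scaled counts (vertical axes, from 0) of 4 gene pairs in each library, with 1 symbol per replicate, the mean as a line and the SD as a bar (n = 3). The ratios of RyR to Ca-alpha1D and of Ca-beta to Ca-alpha1D were higher and that of SERCA to RyR lower in each knockdown sample, while SclB to SERCA overlapped.

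Other genes of calcium transport and signalling were taken from a list of 30, of which 29 were in the table and tested. Of these, 5 were called higher and 4 lower by limma, against 4.58% and 7.02% of all tested genes, and 20 were not called. Their median log2 fold change was 0.16, beside 0.06 over all genes tested. By edgeR 3 were higher and 4 lower, against 3.11% and 6.81% of all genes, and by DESeq2 8 and 8, against 10.7% and 13.4%. Leaving out one sample moved these counts to between 1 and 8 higher and 1 and 4 lower, and the share of all genes called moved with them. Without control replicate 2, 8 were higher, against 19.5% of all genes. Without control replicate 3, 1 was higher, against 0.796%, and 1 was higher without knockdown replicate 1, 2 or 3, against 0.351%, 0.984% and 1.16%. Ca-alpha1T and regucalcin kept their calls in each of those 6 fits.

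Among 7 genes of calcium entry, 3 were called higher and 1 lower. Ca-alpha1T, the T-type channel gene, was at 302, 147 and 341 scaled counts in the controls, against 1942, 1835 and 3322 in the knockdown samples. It rose by 3.20 on the log2 scale (SE 0.39, limma adjusted p = 0.0103), the largest change in the list. The presynaptic channel gene cac rose by 1.68 (adjusted p = 0.0266) and stj, an alpha2delta subunit gene, by 1.09 (adjusted p = 0.0391). A further alpha2delta gene, stol (listed as CG4587), was at 19.1 to 128 in the controls and 355 to 482 in the knockdown samples (2.64, adjusted p = 0.0694).

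The muscle adaptor genes of this group were not called. Stacl, of the STAC family that binds L-type channels, was at 0.22 on the log2 scale (adjusted p = 0.379), and jp, the junctophilin gene that tethers the store to the surface membrane, had 0.54 (adjusted p = 0.344). Orai, the channel that Stim opens, was at 1792, 2830 and 2385 scaled counts in the controls and 1283, 1327 and 1159 in the knockdown samples. It fell by 0.87 (SE 0.18, limma adjusted p = 0.0371), and each knockdown sample lay below each control, as for Stim.

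Of 3 other store genes, 2 were called lower. Calr, the calreticulin gene for a calcium-binding chaperone of the endoplasmic reticulum, averaged 25918 ± 3603 scaled counts in the controls and 16379 ± 1285 in the knockdown samples (SD, n = 3 per group) and fell by 0.66 on the log2 scale (adjusted p = 0.0381). Cnx99A, the calnexin gene for a membrane chaperone of that organelle, had -0.72 (adjusted p = 0.0245). Itpr, the receptor for inositol trisphosphate and the other release channel of the store, was at 3293 to 4050 in the controls and 3305 to 4063 in the knockdown samples (log2 fold change -0.05, interval -0.36 to 0.27, adjusted p = 0.835).

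Of 4 extrusion genes, 1 was called. Nckx30C, a potassium-dependent sodium-calcium exchanger gene, was at 532, 163 and 447 scaled counts in the controls and 1539, 1727 and 1596 in the knockdown samples, and rose by 2.25 (SE 0.45, adjusted p = 0.0312). zyd, another gene of that exchanger family, had 1.46 (adjusted p = 0.0975). PMCA, the surface calcium pump gene, had -0.06 (interval -0.40 to 0.27, adjusted p = 0.784), and SPoCk, the secretory pathway pump gene, had 0.11 (adjusted p = 0.466).

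None of the 3 mitochondrial genes was called. MCU, the calcium uniporter gene, differed by 0.16 in log2 (interval -0.18 to 0.50), and EMRE, an essential regulator of that uniporter, by -0.02. Letm1, an ion exchanger gene of the inner membrane, had -0.87 (adjusted p = 0.155), with control replicate 2 at 11822 against 5337 and 5111 in the other controls.

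Among 12 effector genes, 1 was called higher and 1 lower. Cbp53E, the gene of a calbindin-like calcium buffer, was at 273, 67.3 and 177 scaled counts in the controls and 656, 805 and 577 in the knockdown samples (2.17, adjusted p = 0.0481). regucalcin, a calcium-binding protein gene, averaged 22847 ± 1603 scaled counts in the controls and 9878 ± 805 in the knockdown samples (SD, n = 3 per group) and fell by 1.21 on the log2 scale (SE 0.11, adjusted p = 0.00526). None of the 5 calcineurin subunit genes was called, and their values ran in both directions. CanA-14F, Pp2B-14D and CanB2 had -0.33, -0.41 and -0.27 with separated groups (adjusted p = 0.0523 to 0.142), and CanA1 had -0.14 with overlapping groups (adjusted p = 0.768). CanB was at 150, 32.5 and 166 scaled counts in the controls and 319, 413 and 232 in the knockdown samples, without overlap (1.73, adjusted p = 0.15). Strn-Mlck, a myosin light chain kinase gene, had 0.69 (adjusted p = 0.0694).

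All 5 genes called higher (Ca-alpha1T, cac, stj, Nckx30C and Cbp53E) were lowest in control replicate 2, and the neuronal marker sum was lowest in that sample too, although Syt1 was highest there among the controls. Apart from Ca-alpha1T at 3.20, their log2 fold changes (1.09 to 2.25) lay within the range of the neuronal markers (1.03 to 2.48). Control replicate 2 stood apart over all genes, and without it 19.5% of all genes were called higher, against 4.58% with all samples. Genes not called were lowest there too, such as stol, zyd and CanB, while Orai, Letm1 and sra were highest there among the controls. The share of all genes lowest in that sample is not given here. The part of nervous tissue RNA in the values of the 5 genes was not tested.

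**Figure D5:**
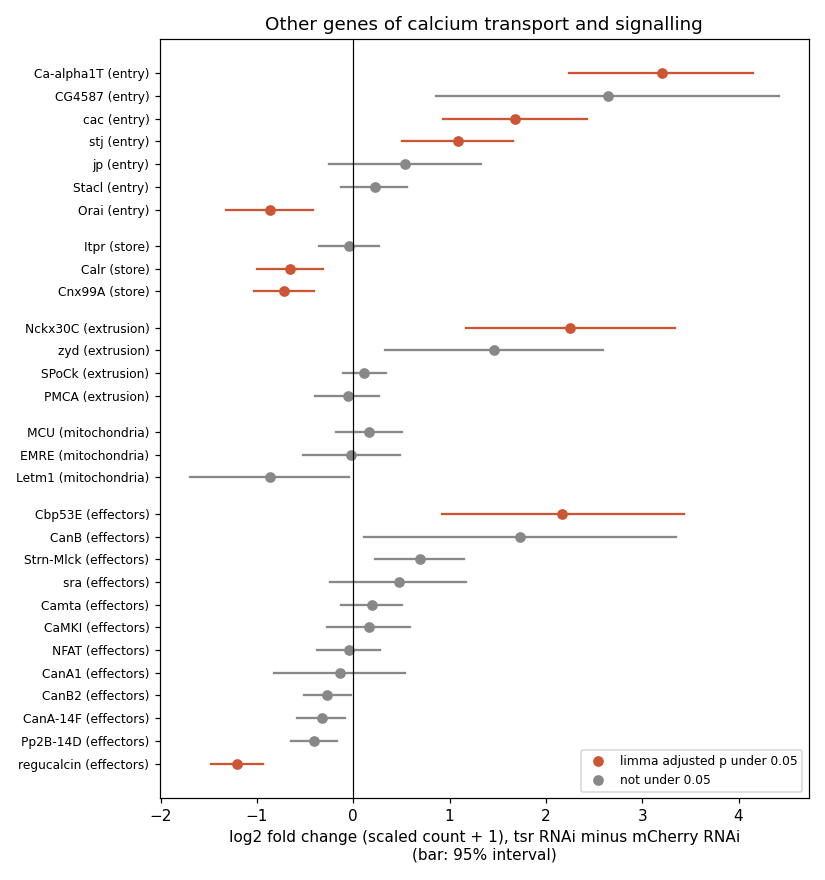
Log2 fold changes (horizontal axis, tsr RNAi minus mCherry RNAi) with 95% intervals for 29 other calcium genes grouped by role, orange where limma's adjusted p was under 0.05. Ca-alpha1T (3.20) was highest and regucalcin (-1.21) lowest, and the mitochondrial genes were not called.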

How the data were processed

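The values deposited by the authors are scaled counts, a signal made by dividing each gene's read count by a factor of its sample. STAR 2.5.0a, Picard, HTSeq 0.5.3 and the build dm6 are named by the submitters' processing notes, without roles or settings; the annotation release and strand setting are not given in the sources used here. Per the labels, libraries came from Trizol-extracted RNA with a SMARTer kit. The deposited rows for reads outside genes (19.4% to 27% of a sample's scaled total) were left out. In each column 100% of gene values, divided by the smallest value above 0, lay within 0.01 of a whole number, so reads could be recovered. That smallest value was 0.9975 in knockdown replicate 1, close to 1.

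Samples were grouped by title. The test was limma 3.58.1 (R 4.3.3) with a trend on log2(value + 1), for genes with a mean of at least 10, Benjamini-Hochberg adjusted over all 11720 genes tested at 0.05. Fold changes are on that scale. edgeR 4.0.16 (quasi-likelihood) and DESeq2 1.42.0 used the recovered reads. The limma step was tested on simulated reads with the same spread setting for all genes and no deviating sample. That test does not cover controls as uneven as these. Coordinates and exon lengths came from the Ensembl annotation of BDGP6 (dm6), matched by gene identifier, and for Ca-beta by symbol. Gene overlap there can affect values: SERCA and Ca-alpha1D share exonic bases with antisense genes and Cam with a noncoding gene on its own strand.

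The members, lists, tests and alternatives were chosen with earlier results of these data known. The naming rule covered the 9 genes, tsr, each other calcium gene called by limma and genes that bound a stated range. The other calcium genes with values, and other single sarcomere and marker genes, were named after their values were seen. One gene of the planned calcium list is not reported here. Reads without molecular identifiers are not independent molecules.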

Additional observations from a re-analysis of the deposited data

How the results depend on the processing

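The fold change of tsr stayed past the threshold in the 11 alternatives on 6 samples (-2.97 to -2.21) and in the 6 fits that left out one sample (-2.43 to -2.13). Of the 9 calcium handling genes, DESeq2 called 2 higher and 2 lower (10.7% and 13.4% of all genes). TMM scaling called 1 of the 9 lower (7.82% of all genes) and sarcomere rescaling 3 lower (21.6%). Leaving out 1 sample gave 0 to 3 of the 9 higher and 0 lower. The 3 came without control replicate 1, where 5.37% of all genes were called higher. Sarcomere rescaling reversed SERCA to -0.33, Calx to -0.222 and SclB to -0.324, with the all-gene median at -0.61; the cause was not tested. Of the other calcium genes (5 higher, 4 lower), sarcomere rescaling called 2 higher and 11 lower (1.57% and 21.6% of all genes), edgeR 3 higher (3.11%), DESeq2 8 higher and 8 lower (10.7% and 13.4%) and equal-total scaling 1 lower (5.76%). Leaving out one sample gave 1 to 8 higher (8 without control replicate 2, 1 without control replicate 3 or any one knockdown sample) and 1 to 4 lower, while 0.351% to 19.5% of all genes were called higher and 1.23% to 7.78% lower. In those 6 fits Ca-alpha1T and regucalcin kept their calls in 6, cac, Orai, Cnx99A, Nckx30C and Cbp53E in 2, and stj and Calr in 1.

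The ratio of SclB to SERCA (log2 difference 0.00618) ran from -0.141 to 0.105 when one sample was left out, being -0.012 without control replicate 2, -0.0161 without control replicate 3 and -0.141 without knockdown replicate 3. The other 3 ratios kept their direction in each such fit. With the replicate block, 0 of the 9 genes were called, and 1 of the other calcium genes was higher and 0 lower, against 0.956% of all genes called. Same-numbered samples deviated from their group means with correlations of -0.46, -0.0322 and 0.192. With so few samples per group, these correlations cannot show whether the numbers mark pairs. The main fit did not treat them as pairs. Depth was similar in the 6 samples and limits mainly genes with few reads.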
